A study of Arabidopsis thaliana with 15 samples.

Results

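The gyf1 gyf2-2 double mutant of Arabidopsis thaliana was compared with wild type (WT) across all genes with enough reads. The comparison rests on 6 of the 15 libraries of the series, 3 of gyf1 gyf2-2 and 3 of WT, and on 20721 of the 32833 genes in the deposited count table, those that passed a filter on low counts (12112 did not). Each library is strand-specific mRNA sequencing of whole seedlings. The gyf1 gyf2-2 plants are labelled as carrying a gyf1 mutation together with gyf2-2, and the WT plants are of the Col-0 accession. The other libraries, used only where they are named, are 3 each of the double mutant gyf1 gyf2-1 and of the single mutants gyf2 and gyf1. No group was treated. All seedlings were 1 week old and grew on half-strength Murashige and Skoog medium with 1% sucrose, so a sugar supply is common to mutants and WT. Not given in the labels are the mutated loci, whether gyf2-1 and gyf2-2 are alleles or lines, and whether the 3 libraries of a genotype came from separate cultures. The p-values therefore measure only the spread between these samples.

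The GYF domain is a compact fold that recognises proline-rich peptides, and plant proteins that carry it have been tied to translation and to the control of immune receptor genes. Seedlings switch between growth and conservation programmes according to their sugar supply: the kinase SnRK1 turns on genes of starvation and catabolism, while the TOR kinase favours ribosome production. Immune programmes driven by salicylic acid, cell surface receptors and WRKY transcription factors commonly run against growth programmes in plants.

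Libraries of gyf1 gyf2-2 held 19020979 to 19987182 counts and those of WT 18913912 to 21307997. WT replicate 1 and gyf1 gyf2-2 replicate 2 stood apart from the other libraries of their own genotype on the second principal component, at 28.4 and 23.1 where the other 4 libraries lay between 0.683 and 3.14. Where a count of 4 or more list members moved by over 1.5 times without both of these libraries or without a single library, that count is also given. Counts of fewer members often changed by 1 or 2 in the same way. All 12 tested genes described with a GYF domain had reads in gyf1 gyf2-2, at mean levels of 2.29 to 137 CPM, which are counts scaled to a common library size by TMM. Hence the transcript levels do not identify the mutated genes. Of these 12, AT2G18090 (log2 fold change 0.28, adjusted p = 0.00579), AT3G51120 (log2 fold change 0.28, adjusted p = 0.0307) and AT5G42950 (log2 fold change 0.29, adjusted p = 0.0496) were higher than in WT, and AT5G23480 (log2 fold change −0.86, adjusted p = 0.00525), AT5G08430 (log2 fold change −0.35, adjusted p = 0.0154) and AT5G01590 (log2 fold change −0.22, adjusted p = 0.00917) were lower. The calls of AT3G51120, AT5G42950, AT5G08430 and AT5G01590 were each lost when single libraries were left out. Since whole seedlings were sampled, fewer cells of a type and less RNA per cell cannot be told apart in any of the results.

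Between gyf1 gyf2-2 and WT, 5734 of 20721 genes differed at adjusted p below 0.05 (27.7%), by edgeR's quasi-likelihood test with Benjamini-Hochberg adjustment over all tested genes, the test behind every adjusted p here. Of these, 3128 were higher (15.1% of tested genes) and 2606 lower (12.6%). Most differences were small: the median log2 fold change was 0.49 among the genes called higher and −0.39 among those called lower, and −0.01 over all tested genes. Changes of at least 2-fold were more often rises (570 genes, 2.75%) than falls (200 genes, 0.965%), as were changes of at least 4-fold (76 genes, 0.367%, against 33 genes, 0.159%). In 94.5% of the rises and 93.7% of the falls, the 3 gyf1 gyf2-2 libraries did not overlap the 3 WT libraries. Over all tested genes, 19.9% lay above all WT libraries in all 3 gyf1 gyf2-2 libraries and 18.9% below.

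**Figure D1:**
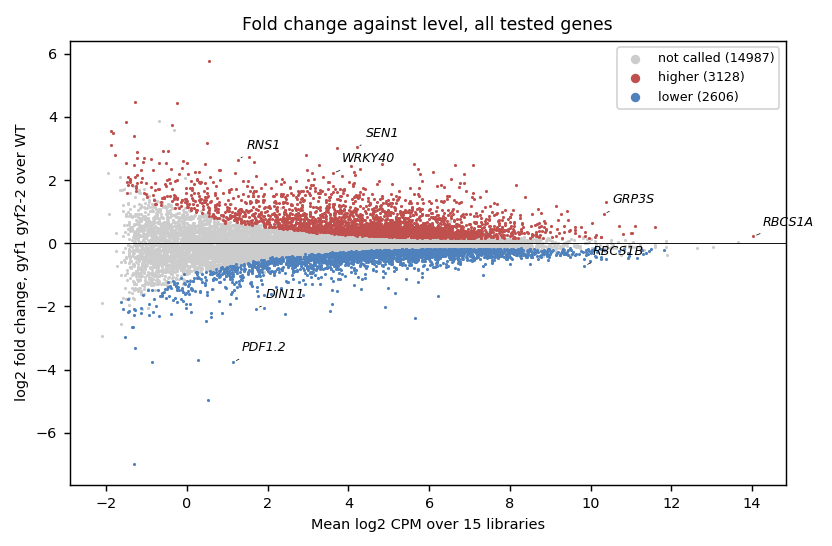
Each point is one of the 20721 tested genes, with the mean level over all libraries on the x axis (log2 CPM) and the log2 fold change of gyf1 gyf2-2 over WT on the y axis. Genes called at adjusted p below 0.05 are coloured by direction, and the 570 rises of at least 2-fold outnumber the 200 falls.

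Among genes whose mean level reached a log2 CPM of 1, the largest rise was that of AT4G35770 (SEN1, also known as DIN1), a rhodanese-like protein gene that is switched on in darkness and senescence. It had 54.8, 54.7 and 55.7 CPM in gyf1 gyf2-2, against 6.48, 6.36 and 7.32 CPM in WT (log2 fold change 3.04, SE 0.11, adjusted p = 7.6e-18). AT5G33355, a defensin-like gene, had 58, 37.9 and 36.7 CPM in gyf1 gyf2-2, against 5.02, 4.55 and 6.79 CPM in WT (log2 fold change 3.02, adjusted p = 2.08e-09). AT3G15450, described as an aluminium-induced protein, was the most abundant of the 20 largest rises, with 296, 284 and 283 CPM in gyf1 gyf2-2, against 49.3, 47.1 and 57.4 CPM in WT (log2 fold change 2.49, adjusted p = 2.08e-14). Only called genes whose libraries did not overlap were ranked, so the lack of overlap in these 3 genes was set by that choice. Genes named beyond the rule given under processing were chosen after their values were seen. The other large rises took in AT4G32480, a DUF506 gene (56.4, 63.6 and 56 CPM in gyf1 gyf2-2, against 9.9, 9.96 and 10.8 CPM in WT), and AT1G80440 (128, 103 and 126 CPM in gyf1 gyf2-2, against 25.4, 23.2 and 25.3 CPM in WT), a kelch repeat F-box gene also named KMD1 whose product targets cytokinin response regulators for degradation. They also took in TCH4, a xyloglucan endotransglucosylase induced by touch (96.4, 89.6 and 102 CPM in gyf1 gyf2-2, against 20.2, 15 and 15.6 CPM in WT). All 3 genes lay above WT in all libraries, which the ranking required. ZAT7, a zinc finger repressor of stress responses, rose by 2.48, CML38, a calmodulin-like protein, by 2.32, AIG1, a GTP-binding protein induced by avirulent bacteria, by 2.36, and CYP707A3, an abscisic acid hydroxylase, by 2.21 on the log2 scale.

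Under the same limit on level, the falls were led by PDF1.2, a plant defensin used as a marker of jasmonate and ethylene signalling. It had 0.427, 0.395 and 1.19 CPM in gyf1 gyf2-2, against 13, 7.16 and 7.06 CPM in WT (log2 fold change −3.76, SE 0.48, adjusted p = 3.78e-05). Genes of lower level were not ranked. AT4G33720, of the same CAP protein family as PR1, had 20.2, 15.5 and 14.1 CPM in gyf1 gyf2-2, against 99.2, 69 and 89 CPM in WT (log2 fold change −2.37, adjusted p = 1.09e-10). AT2G27402, described as a plastid transcriptionally active protein, was the most abundant of the 20 largest falls, with 37, 47.3 and 38.2 CPM in gyf1 gyf2-2, against 126, 129 and 136 CPM in WT (log2 fold change −1.67, adjusted p = 7.88e-12). All 3 of these genes lay below WT in each library, which the ranking required. Next came AT2G27420, a cysteine proteinase gene (log2 fold change −2.25), AT2G15020, with no described function (−2.15), and DIN11, a 2-oxoglutarate-dependent oxygenase (−2.07). SAUR-like genes, a family of small auxin-responsive proteins that promote cell expansion, supplied AT5G18030 (−1.93), AT4G38860 (−1.92) and SAUR29 (−1.53) among the 20 largest falls. GIS, a zinc finger factor of trichome initiation (−1.75), WAG1, a kinase that directs auxin transport (−1.5), CYP78A6, a promoter of organ growth (−1.63), and EXPA10, a cell wall expansin (−1.58), also belonged to them. NRT2:1, the inducible high-affinity nitrate transporter, was there as well (log2 fold change −1.51, adjusted p = 0.0287), but its call was lost without WT replicate 1 or 2 or gyf1 gyf2-2 replicate 1 or 2.

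Genes of carbon starvation were higher in gyf1 gyf2-2 although the medium held sugar. Of the 18 sugar starvation markers, 15 rose and 1 fell, 10 of the rises by at least 2-fold, where 15.1% and 12.6% of all tested genes rose and fell. The list's median log2 fold change was 1.08, and its summed level was 1771, 1623 and 1697 CPM in gyf1 gyf2-2, against 718, 737 and 762 CPM in WT. The sums of the 2 genotypes lay far apart. TPS11, a class II trehalose phosphate synthase-like protein (chromosome 2, 8108898 to 8112010, TAIR10), had 59.8, 55.4 and 61 CPM in gyf1 gyf2-2, against 16.3, 15.3 and 16.8 CPM in WT (log2 fold change 1.86, SE 0.09, adjusted p = 7.09e-15). DIN10, a raffinose synthase-like gene induced in darkness, had 569.6, 481 and 527 CPM in gyf1 gyf2-2, against 170.3, 194 and 207 CPM in WT (log2 fold change 1.47, adjusted p = 8.55e-14). Both lay above WT in every library. BT2, a BTB domain protein repressed by sugar, rose by 1.60, and EXL2 and EXO, of the EXORDIUM family, by 1.38 and 1.27. The dormancy genes DYL1 and AT2G33830 (DRM2) rose by 1.36 and 0.80. ASN1, the dark-induced asparagine synthetase, rose by 0.43, a call lost without WT replicate 1 or 2 or gyf1 gyf2-2 replicate 1 or 3. The exception was DIN11, with 1.39, 2.17 and 1.29 CPM in gyf1 gyf2-2, against 5.26, 6.26 and 9.08 CPM in WT (log2 fold change −2.07, adjusted p = 3.06e-04).

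Trehalose 6-phosphate is a signal of sucrose supply, and the class II synthases are thought to have regulatory roles. Of the 8 tested synthase genes, 5 rose: TPS8 (1.99), TPS11, TPS9 (1.11), AT1G60140 (TPS10, 1.04) and ATTPS6 (0.38). TPS1, the catalytically active synthase, fell to 48, 46.8 and 48.2 CPM in gyf1 gyf2-2, against 55.9, 62.4 and 58.3 CPM in WT (log2 fold change −0.30, adjusted p = 0.00313). Of the 8 phosphatase genes, TPPG alone was called (log2 fold change 0.23, adjusted p = 0.0499), and not in most of the other settings tried. Of the 11 genes of SnRK1 and its partners, 4 rose and 1 fell, and the median was 0.08. The rises were HSPRO2, a protein that binds the kinase (210.1, 172 and 192 CPM in gyf1 gyf2-2, against 36.7, 34.3 and 32.6 CPM in WT), its relative AT3G55840 (1.95), the beta subunit AKINBETA1 (0.77) and the gamma-like subunit KING1 (0.42). HSPRO2 lay above WT in every library (log2 fold change 2.47, adjusted p = 3.12e-15).

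The window of 300 bases before the annotated start of TPS11 (RefSeq TAIR10.1, plus strand, chr2:8108598-8108897) is shown because TPS11 is the called starvation marker with the lowest adjusted p whose window holds TATCCA and overlaps no annotated gene. TATCCA is the core of a sugar response element known from rice alpha-amylase genes, and the capitals mark it.
TPS11: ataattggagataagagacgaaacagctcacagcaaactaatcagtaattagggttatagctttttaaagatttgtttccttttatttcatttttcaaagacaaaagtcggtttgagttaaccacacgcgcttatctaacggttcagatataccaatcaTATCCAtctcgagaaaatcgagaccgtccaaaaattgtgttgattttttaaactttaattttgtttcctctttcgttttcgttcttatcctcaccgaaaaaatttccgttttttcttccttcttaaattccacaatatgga
TATCCA, on either strand, was present in the windows of 5 of the 18 starvation markers (27.8%), of 16.5% of all tested genes, of 19.2% of those called higher and of 16.2% of those called lower. The match describes letters in a window and not a bound site.

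Catabolic genes showed the same direction. Of 16 genes for breakdown of branched-chain amino acids and lysine, 11 rose and 1 fell (median 0.29). MCCA, a subunit of methylcrotonyl-CoA carboxylase, had 53.1, 44 and 51.5 CPM in gyf1 gyf2-2, against 25.2, 29 and 30.9 CPM in WT (log2 fold change 0.81, adjusted p = 2.26e-08). AT1G21400, of the branched-chain ketoacid dehydrogenase, had 56.8, 43 and 52.1 CPM in gyf1 gyf2-2, against 22.2, 24.5 and 29.3 CPM in WT (log2 fold change 1.00, adjusted p = 3.65e-08), and AT4G33150 (LKR/SDH, the first enzyme of lysine breakdown) rose by 0.68. The 2 transaminases BCAT-2 and BCAT-1 went opposite ways (1.37 and −0.48). For autophagy, the recycling of cell contents in the vacuole, 13 of 26 genes rose and 0 fell (median 0.28). The rises included ATG8F, a membrane tag of the autophagosome (142, 124 and 134 CPM in gyf1 gyf2-2, against 102, 85.2 and 87.2 CPM in WT), 5 of its relatives, and the cargo receptor NBR1 (353, 268 and 326 CPM in gyf1 gyf2-2, against 218, 218 and 243 CPM in WT). None reached 2-fold.

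Of 19 genes of chlorophyll breakdown and leaf senescence, 13 rose and 1 fell (median 0.57). The regulators WRKY53 (25.8, 25.5 and 24.2 CPM in gyf1 gyf2-2, against 8.26, 7.41 and 8.6 CPM in WT), NAC6 (ORE1, 1.25), NAP (1.51) and WRKY6 (0.84) rose, as did SAG20 (0.91), SAG21 (0.64) and SAG13 (1.65). Of the enzymes that degrade chlorophyll, ACD1 (0.57) and PPH (0.49) rose. NAC083, also called VNI2, a repressor of leaf ageing, fell (log2 fold change −0.33, adjusted p = 1.95e-04).

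Starch enzymes as a group did not lean one way: 5 of 21 breakdown genes rose and 2 fell, and 2 of 16 synthesis genes rose and 3 fell, with 1 fall left on leaving out any of 4 single libraries. The beta-amylases themselves differed, with AT3G23920 (BAM1, 0.49) and BAM5 (2.01) higher and BAM6 (−1.26) and BAM3 (−0.25) lower, the call of BAM3 being lost without gyf1 gyf2-2 replicate 3. Of 26 sugar transporters, 10 rose and 3 fell. The rises included the proton-coupled carriers SUC1 (0.60), STP1 (0.65), STP4 (0.62), STP7 (0.62) and STP14 (0.97). Of the SWEET transporter family, SWEET1 (−0.54) and SWEET2 (−0.48) fell and SWEET11 rose (0.33).

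**Figure D2:**
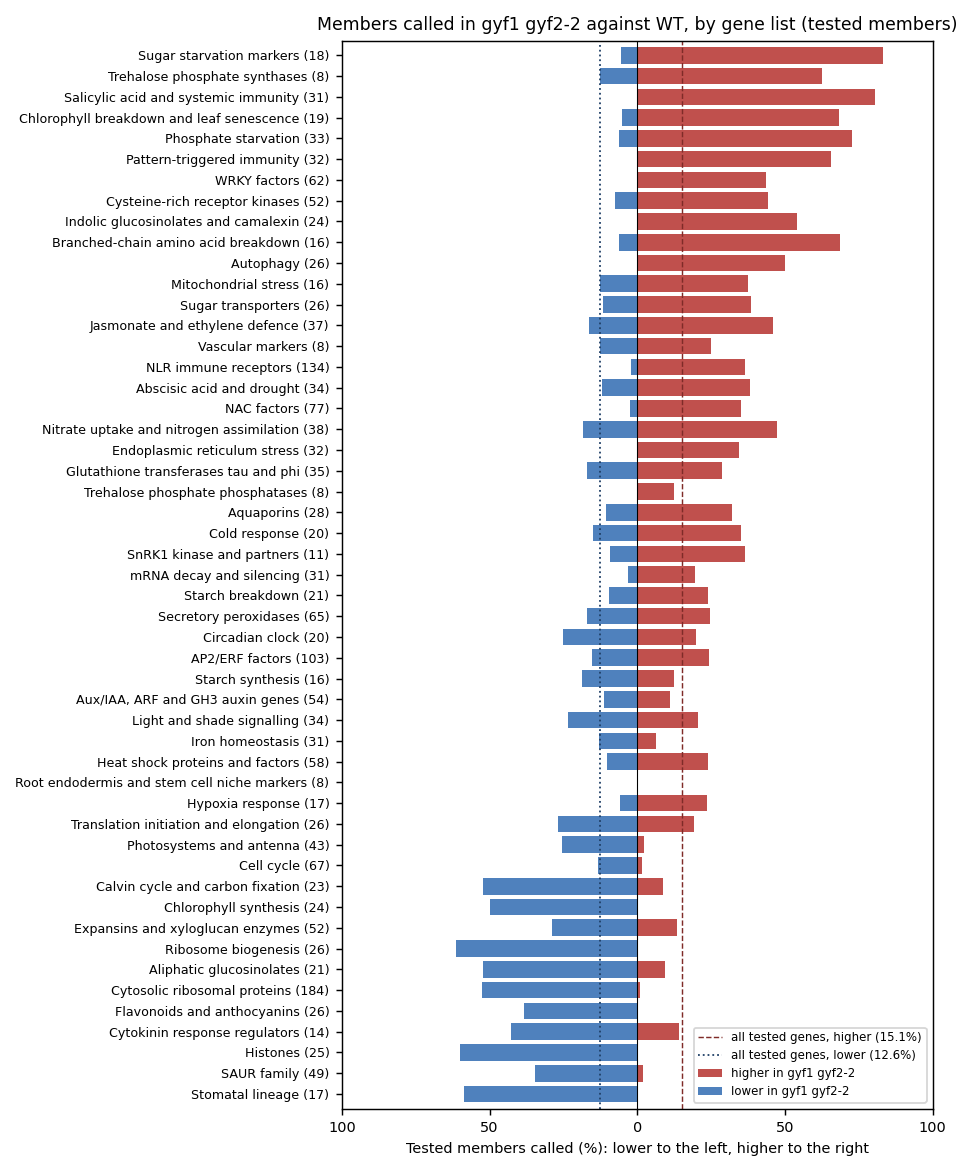
Bars give, for each gene list, the percent of its tested members called higher (to the right) or lower (to the left) in gyf1 gyf2-2 than in WT, and the vertical lines mark the percent over all tested genes, 15.1 higher and 12.6 lower. The sugar starvation, salicylic acid and phosphate lists reach far to the right, and the ribosomal, histone and stomatal lists to the left.

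Among photosynthetic genes falls outnumbered rises, though the list medians were small. Over all tested genes 12.6% fell. Of 43 photosystem and antenna genes, 1 rose and 11 fell, with a median of −0.13, but the count of falls was 5 without WT replicate 1, 5 without gyf1 gyf2-2 replicate 2 and 3 without both libraries that stood apart. PSBQA, of the oxygen-evolving complex, had 1139.9, 1059 and 1196 CPM in gyf1 gyf2-2, against 1669, 1562 and 1600.0 CPM in WT (log2 fold change −0.51, adjusted p = 3.89e-07). In the Calvin cycle and carbon fixation, 12 of 23 genes fell and 2 rose (median −0.16), among the falls GAPA-2 (−0.51), CA2, a carbonic anhydrase (−0.57), FBA1 (−0.41) and FBA2 (−0.33), both aldolases. The genes of the Rubisco small subunit did not move together. RBCS1B had 612, 770.4 and 716 CPM in gyf1 gyf2-2, against 1094, 1208 and 1132 CPM in WT (log2 fold change −0.71, adjusted p = 7.16e-09). RBCS2B had 1761, 2017 and 1915 CPM in gyf1 gyf2-2, against 2465, 2836 and 2624 CPM in WT (log2 fold change −0.48, adjusted p = 1.94e-06). RBCS1A had 17729, 18086 and 19396 CPM in gyf1 gyf2-2, against 15425, 16322 and 15792 CPM in WT (log2 fold change 0.22, adjusted p = 0.00905). The first 2 lay below WT in all libraries and RBCS1A above, though the call of RBCS1A was lost without gyf1 gyf2-2 replicate 3. These genes have near-identical coding sequences, so how reads were shared between them is uncertain. Of 24 genes of chlorophyll synthesis and its regulators, 12 fell and 0 rose. The falls included the pair of GOLDEN2-LIKE factors that drive chloroplast genes. GLK2 had 67.4, 56.6 and 67.5 CPM in gyf1 gyf2-2, against 96.9, 95.5 and 99.9 CPM in WT, and GPRI1 (GLK1) had 72, 61.6 and 73.3 CPM in gyf1 gyf2-2, against 120.4, 109 and 115 CPM in WT. Both lay below WT in each library (log2 fold change −0.61, adjusted p = 6.79e-08 and log2 fold change −0.73, adjusted p = 7.91e-08).

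Genes of the translation machinery were lower. Of 184 cytosolic ribosomal protein genes tested, 97 fell and 2 rose, and the median log2 fold change was −0.29. Their summed level was 38692, 43601 and 41596 CPM in gyf1 gyf2-2, against 55727, 49139 and 46208 CPM in WT, so no sum of gyf1 gyf2-2 reached the lowest of WT. The highest sum was that of WT replicate 1, the library that stood apart. Without it 61 fell, without gyf1 gyf2-2 replicate 1 63, and without both libraries that stood apart 75. AT5G02870, a large subunit L4 gene, had 467, 528 and 509 CPM in gyf1 gyf2-2, against 653, 658 and 616 CPM in WT (log2 fold change −0.36, SE 0.06, adjusted p = 4.37e-05). AT3G53870, a small subunit S3 gene, had 306, 311 and 344 CPM in gyf1 gyf2-2, against 459.8, 424 and 386 CPM in WT (log2 fold change −0.40, adjusted p = 4.46e-05). The falls were small, and none of them reached 2-fold. The 2 rises were AT2G47610, an L7a gene, and RPL3B (0.44). AT2G47610 lies in a stretch of chromosome 2 described at the end.

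Of 26 ribosome biogenesis genes, 16 fell and 0 rose (median −0.27). FIB1, a fibrillarin that methylates ribosomal RNA, had 153, 140.5 and 156 CPM in gyf1 gyf2-2, against 198, 194 and 180.2 CPM in WT (log2 fold change −0.35, adjusted p = 1.61e-04), and NUC-L1, nucleolin, had 303, 338 and 339.9 CPM in gyf1 gyf2-2, against 426, 414 and 404 CPM in WT (log2 fold change −0.34, adjusted p = 1.72e-04). PUM24, which works in rRNA processing, had the lowest adjusted p of the list (log2 fold change −0.48, adjusted p = 5.72e-05). Small nucleolar RNA genes, whose products guide modification of ribosomal RNA, also stood out. Of 56 tested, 25 were lower (44.6%) and 0 higher by edgeR (0 also by DESeq2 and limma), 55 had a negative log2 fold change, and the median was −0.92. Their levels were low, and 16 of them overlap another annotated gene. Summed, they had 46.6, 51.1 and 43.2 CPM in gyf1 gyf2-2, against 108 CPM in WT replicate 1 and 79.3 and 79.5 CPM in the other WT libraries. Without WT replicate 1, 13 were called lower and the median was −0.70. The kind was singled out after its values were seen, and mRNA libraries are not designed to hold small nucleolar RNAs.

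Translation factors were mixed, with 5 of 26 higher (19.2%) and 7 lower (26.9%), against 15.1% and 12.6% of all tested genes. Without gyf1 gyf2-2 replicate 1 the rises were 3. The falls held initiation and poly(A) binding factors: eIFiso4G2 (−0.68), PAB8 (−0.52), PAB4 (−0.48), LSP1 (eIFiso4E, −0.41) and EIF4E (−0.38). S6K2, a kinase downstream of TOR, had 39, 41.2 and 34.6 CPM in gyf1 gyf2-2, against 15.3, 16.4 and 16.1 CPM in WT (log2 fold change 1.26, adjusted p = 5.84e-11), above WT in every library. In mRNA decay and silencing, 6 of 31 rose (19.4%, not far above the share of all tested genes) and 1 fell, with a median of 0.07. The rises included the deadenylases CAF1a (0.74) and CAF1b (0.79) and the silencing gene RDR1 (0.74).

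The promoter window of AT1G43170 (RP1, RPL3A), a large subunit L3 gene, is shown as the called ribosomal gene with the lowest adjusted p (log2 fold change −0.34, adjusted p = 5.97e-05) whose window holds a site II element and overlaps no annotated gene. Site II, searched as TGGGCC on both strands, is found before many genes of growing cells. The window is chr1:16266253-16266552 (RefSeq TAIR10.1, plus strand), with the 2 elements in capitals.
AT1G43170: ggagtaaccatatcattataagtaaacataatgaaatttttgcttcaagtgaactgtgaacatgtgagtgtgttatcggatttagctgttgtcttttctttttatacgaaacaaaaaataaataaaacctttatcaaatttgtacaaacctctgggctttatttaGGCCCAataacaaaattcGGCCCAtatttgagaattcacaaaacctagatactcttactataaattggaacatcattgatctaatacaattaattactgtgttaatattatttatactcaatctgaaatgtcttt
Site II was present in 105 of 184 ribosomal protein windows (57.1%), in 38.5% of those of ribosome biogenesis and in 16.8% of all tested genes. It was present in 11.4% of the windows of genes called higher and 20.3% of those called lower, and in 7.37% of those at least 2-fold higher. The telo-box, AAACCCT on both strands, another element of ribosomal genes, was in 24.5% of ribosomal protein windows and 7.48% of all, in 4.92% of genes called higher and 9.44% of those called lower.

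Immune genes rose in gyf1 gyf2-2. Of the 31 genes of salicylic acid and systemic immunity, 25 rose and 0 fell, with a median of 0.69. Their summed level was 1710.4, 1371 and 1595 CPM in gyf1 gyf2-2, against 946, 811 and 853 CPM in WT. Synthesis of salicylic acid and pipecolic acid was represented by EDS16 (ICS1, 51.6, 36.8 and 56.6 CPM in gyf1 gyf2-2, against 23.7, 27 and 21.2 CPM in WT), SARD1, an activator of ICS1 (40.7, 34.6 and 44.5 CPM in gyf1 gyf2-2, against 12.5, 9.81 and 9.71 CPM in WT), and ALD1, the first enzyme of pipecolic acid synthesis (8.00, 6.92 and 13.3 CPM in gyf1 gyf2-2, against 2.58, 2.00 and 3.03 CPM in WT). Each of these lay above the WT range in all libraries (log2 fold change 1.01, adjusted p = 1.34e-04, log2 fold change 1.90, adjusted p = 1.97e-11 and log2 fold change 1.89, adjusted p = 3.58e-06). The receptors NPR3, NPR1 and NPR4 rose by 1.39, 0.45 and 0.41, and the lipase-like immune hub genes EDS1, PAD4 and SAG101 by 0.70, 0.58 and 0.76. The pathogenesis-related marker PR1 varied between libraries of both genotypes, with 433, 215 and 267 CPM in gyf1 gyf2-2, against 147, 30.0 and 46.8 CPM in WT (log2 fold change 2.02, adjusted p = 0.0245), and its call was lost without WT replicate 2 or 3 or gyf1 gyf2-2 replicate 1. PR1 is part of the summed level, so its spread enters those sums. The other markers BGL2 (PR2) and PR5 rose by 0.69 and 0.42. DMR6, an oxygenase that removes salicylic acid, had 53.2, 51.7 and 56 CPM in gyf1 gyf2-2, against 32.5, 31.3 and 30.3 CPM in WT (log2 fold change 0.77, adjusted p = 5.42e-08).

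Of 62 WRKY factors, 27 rose, 15 of them by at least 2-fold, and 0 fell. WRKY33, needed for defence against necrotrophic fungi and for camalexin synthesis, had 128, 109 and 121.5 CPM in gyf1 gyf2-2, against 32.9, 33.6 and 36.7 CPM in WT (log2 fold change 1.8, SE 0.09, adjusted p = 2.83e-15). WRKY40 had 21.8, 22.8 and 24 CPM in gyf1 gyf2-2, against 5.16, 4.5 and 5.1 CPM in WT (log2 fold change 2.22, adjusted p = 1.41e-13), and WRKY18, its partner in repression, had 65.2, 69.2 and 65.4 CPM in gyf1 gyf2-2, against 26.5, 22.5 and 22.9 CPM in WT (log2 fold change 1.47, adjusted p = 1.44e-13). None of these 3 overlapped with WT. WRKY46 (2.11), WRKY70 (1.86), WRKY54 (1.06) and WRKY62 (2.32) also rose. Of 77 NAC factors 27 rose and 2 fell, and the rises with the lowest adjusted p were ATAF2 (1.07), NAC062 (1.15), a membrane-bound factor, and NAC047 (1.33). AP2/ERF factors went both ways, 25 higher (24.3%) and 16 lower (15.5%) of 103, against 15.1% and 12.6% of all tested genes. The rises took in RAV1 (1.34), RAV2 (1.26), ERF-1 (1.23) and ERF6 (1.48), while 5 cytokinin response factors, CRF1, CRF2, CRF3, CRF10 and CRF11, fell, with log2 fold changes of −1.22, −1.11, −0.90, −0.72 and −0.49.

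The window before WRKY33 (RefSeq TAIR10.1, plus strand, chr2:16107935-16108234) is shown as that of the called WRKY gene with the lowest adjusted p that holds a W-box, the element WRKY proteins bind, and overlaps no annotated gene. The W-box was searched as TTGACC or TTGACT on both strands, and capitals mark the 3 matches, each on the minus strand.
WRKY33: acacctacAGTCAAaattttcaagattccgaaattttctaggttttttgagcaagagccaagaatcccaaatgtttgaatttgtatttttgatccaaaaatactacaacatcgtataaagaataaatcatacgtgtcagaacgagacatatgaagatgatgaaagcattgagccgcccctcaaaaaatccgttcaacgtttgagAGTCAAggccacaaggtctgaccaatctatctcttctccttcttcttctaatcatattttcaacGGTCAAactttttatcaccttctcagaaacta
W-boxes were in 37.1% of the windows of the 62 WRKY genes and in 32.3% of all windows. They were in 38% of the windows of genes called higher, 41.4% of those at least 2-fold higher and 27.6% of those called lower. The median GC content of these windows was 30.0% for genes called higher, 32.0% for those called lower and 31.3% for all.

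Receptors and kinases of surface immunity rose too. Of 32 genes of pattern-triggered immunity, 21 rose and 0 fell (median 0.45). MPK3, a MAP kinase activated by pathogen patterns, had 166, 160.4 and 155 CPM in gyf1 gyf2-2, against 81.5, 82.1 and 89.6 CPM in WT (log2 fold change 0.93, adjusted p = 2.78e-12). The receptor adaptor SOBIR1 rose by 1.16, the co-receptors SERK4 and BAK1 by 0.71 and 0.35, the oxidase RBOHD by 0.90, the cytoplasmic kinase BIK1 by 0.42, and FRK1, a marker of flagellin response, by 1.2. Among intracellular NLR receptors, 49 of 134 rose and 3 fell (median 0.20). Without gyf1 gyf2-2 replicate 1 the rises were 34. The helper receptors of the ADR1 family rose: ADR1-L2 had 88.8, 83 and 93.6 CPM in gyf1 gyf2-2, against 38.6, 41.9 and 43.7 CPM in WT, ADR1-L1 rose by 1.03 and ADR1 by 0.92. ZAR1 (0.77), RPP4 (0.70) and SNC1 (0.42) were among the sensors that rose, and AT1G72940, a TIR-domain gene, had the lowest adjusted p (log2 fold change 1.56, adjusted p = 3.99e-13). NLR genes stand in clusters of close copies, so reads may be split between neighbours. Of 52 cysteine-rich receptor kinases, 23 rose and 4 fell, CRK10 by 0.93 and CRK4 by 1.85.

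**Figure D3:**
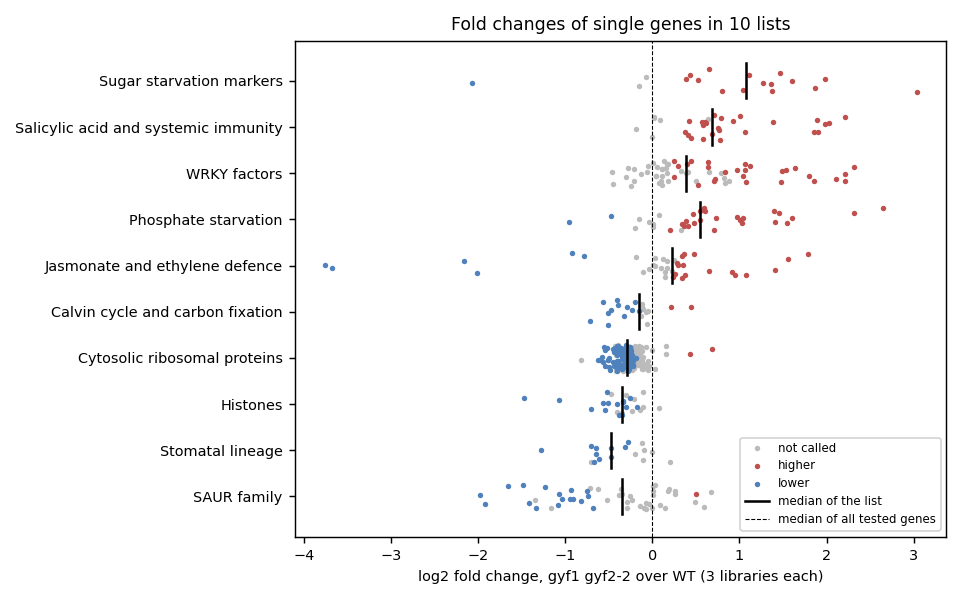
Each point is one tested member of a gene list, placed by its log2 fold change of gyf1 gyf2-2 over WT, with the list's median as a vertical mark. Members of the salicylic acid and sugar starvation lists lie mostly to the right of 0, while members of the ribosomal list lie mostly to the left and close to 0.

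The jasmonate and ethylene list held 17 rises and 6 falls among 37 tested genes. Rises took in enzymes of jasmonate synthesis, with LOX2 (693, 583 and 690.0 CPM in gyf1 gyf2-2, against 278, 293 and 366 CPM in WT), LOX4 (1.79) and AOC1 (0.65), the repressor JAZ1 (0.92), and the wound and insect markers VSP2 (1.41) and VSP1 (0.95). The falls were the defensins PDF1.2, PDF1.2c, PDF1.2b and PDF1.3 (−3.76, −3.68, −2.16 and −2.01), the thionin THI2.2 (−0.93) and ORA59, the ERF factor that activates the defensins (7.52, 6.87 and 5.52 CPM in gyf1 gyf2-2, against 10.5, 9.76 and 14.1 CPM in WT). The gyf1 gyf2-2 libraries of ORA59 lay below all WT libraries (log2 fold change −0.78, adjusted p = 4.23e-04). The defensin genes are close copies, so their reads may be split between them. Without gyf1 gyf2-2 replicate 2, 11 members of the list rose.

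Defence metabolites also divided. Of 24 genes of indolic glucosinolates and camalexin, 13 rose and 0 fell, while of 21 genes of aliphatic glucosinolates 2 rose and 11 fell. The medians were 0.29 and −0.28. The camalexin enzymes CYP71A12 (log2 fold change 0.72, adjusted p = 0.0934), CYP71A13 (0.60, adjusted p = 0.353) and PAD3 (0.21, adjusted p = 0.670) were not called. GSTF6, of the same list, rose by 0.68. Of the regulators of the indolic branch, MYB51 had 40.6, 40.2 and 37.8 CPM in gyf1 gyf2-2, against 15.2, 14.5 and 15.5 CPM in WT, while MYB34 and MYB122 were not called (log2 fold change −0.12, adjusted p = 0.369 and log2 fold change 0.10, adjusted p = 0.887). MYB28 of the aliphatic branch had 57.8, 64 and 54.7 CPM in gyf1 gyf2-2, against 90.4, 84.4 and 84.9 CPM in WT. MYB51 and MYB28 left no overlap between genotypes (log2 fold change 1.39, adjusted p = 1.05e-11 and log2 fold change −0.56, adjusted p = 1.67e-06). MYB29, the second aliphatic regulator (−0.81), and the entry enzyme CYP79F1 (−0.64) fell, and the indolic enzymes CYP79B2, CYP79B3 and CYP83B1 rose by 0.39, 0.36 and 0.31. AT2G44490 (PEN2), which activates indolic glucosinolates, rose by 0.27. Of 26 flavonoid genes 10 fell and 0 rose (median −0.31). The flavonol regulators MYB111 (−0.92) and MYB12 (−0.63) fell together with the enzymes TT4, chalcone synthase (−0.29), FLS1, flavonol synthase (−0.38), and UGT78D1, a glycosyltransferase (51.9, 54.8 and 54 CPM in gyf1 gyf2-2, against 83.9, 89.2 and 94.7 CPM in WT).

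Genes of phosphate starvation rose. Of 33 tested, 24 were higher, 10 by at least 2-fold, and 2 lower, with a median of 0.54. The summed level was 1849, 1734 and 1674 CPM in gyf1 gyf2-2, against 1206, 1288 and 1305 CPM in WT, without overlap. SRG3, a glycerophosphodiester phosphodiesterase (chromosome 3, 348167 to 350010, TAIR10), had 66.9, 68.3 and 63.9 CPM in gyf1 gyf2-2, against 23.2, 25 and 26.8 CPM in WT (log2 fold change 1.41, SE 0.08, adjusted p = 9.79e-14). SPX1, a phosphate-dependent inhibitor of the regulator PHR1 and itself induced by starvation, had 92.4, 99 and 82.5 CPM in gyf1 gyf2-2, against 48.1, 38.7 and 47.6 CPM in WT (log2 fold change 1.03, adjusted p = 8.32e-11). PLDP2, a phospholipase D that frees phosphate from membrane lipids, had 23.5, 17.6 and 24.1 CPM in gyf1 gyf2-2, against 6.34, 7.71 and 8.33 CPM in WT (log2 fold change 1.55, adjusted p = 1.52e-10). In each of these 3 genes the lowest gyf1 gyf2-2 library exceeded the highest WT library. The sulfolipid and galactolipid enzymes that replace phospholipids, SQD2, SQD1 and MGDC, rose by 0.71, 0.60 and 1.4, and the ribonuclease RNS1 by 2.65. PHT1;4, a root phosphate transporter, rose by 0.73, and PHO2, which limits phosphate uptake, by 0.41. The falls were PHT1;2 (log2 fold change −0.96, adjusted p = 0.0237), another transporter, and PPCK1 (log2 fold change −0.47, adjusted p = 0.00239), a kinase of phosphoenolpyruvate carboxylase, and both calls were lost without both libraries that stood apart, that of PHT1;2 also without WT replicate 2 or gyf1 gyf2-2 replicate 1 or 2.

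The window before SRG3 (RefSeq TAIR10.1, minus strand, chr3:350011-350310) is shown as that of the called phosphate gene with the lowest adjusted p that holds P1BS, the element bound by PHR1, and overlaps no annotated gene. P1BS was searched as GNATATNC on both strands, and capitals mark the 2 matches.
SRG3: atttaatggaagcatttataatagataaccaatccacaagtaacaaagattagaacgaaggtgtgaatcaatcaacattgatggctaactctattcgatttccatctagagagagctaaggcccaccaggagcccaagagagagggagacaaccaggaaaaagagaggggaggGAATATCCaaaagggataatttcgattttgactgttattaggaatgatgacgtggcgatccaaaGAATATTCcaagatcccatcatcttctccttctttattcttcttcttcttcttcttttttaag
P1BS was in the windows of 8 of the 33 phosphate genes (24.2%), of 6.58% of all tested genes, of 8.47% of those called higher and of 5.82% of those called lower.

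Nitrogen genes leaned upwards, with 18 of 38 higher and 7 lower. The rises included enzymes that release carbon skeletons or ammonium from amino acids. ERD5, proline dehydrogenase, had 392, 375 and 345 CPM in gyf1 gyf2-2, against 194, 189 and 202 CPM in WT, and GDH2 and GDH1, glutamate dehydrogenases, rose by 0.91 and 0.65. Nitrate reductases NIA1 and NIA2 rose by 0.53 and 0.29, while NIR1, nitrite reductase, fell to 346, 340.4 and 362 CPM in gyf1 gyf2-2, against 437, 508 and 452 CPM in WT (log2 fold change −0.41, adjusted p = 6.55e-06). Iron genes showed few calls, 2 higher and 4 lower of 31. YSL3, a transporter of iron complexes in veins, had 219, 207 and 212 CPM in gyf1 gyf2-2, against 122.3, 118 and 126 CPM in WT (log2 fold change 0.80, adjusted p = 2.18e-11), and the iron stores FER1 and FER3 (−0.36 and −0.36) and the vacuolar transporter VIT1 (−2.96) were lower. The rises were 5 without gyf1 gyf2-2 replicate 2, and the falls among nitrogen genes 4 without WT replicate 2.

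Responses to the environment were less uniform. Of 34 abscisic acid and drought genes 13 rose and 4 fell, with RD26 (0.98) and PYL5 (0.50) higher and RD22 (−0.62) lower, and the rises were 6 without gyf1 gyf2-2 replicate 1, 8 without gyf1 gyf2-2 replicate 3 and 8 without WT replicate 3. Of 20 cold genes 7 rose and 3 fell, the rises including the zinc finger repressor STZ (40.7, 38.6 and 41.7 CPM in gyf1 gyf2-2, against 17.4, 17.4 and 14.6 CPM in WT). In the endoplasmic reticulum stress list, 11 of 32 rose and 0 fell, with the sensor IRE1A (0.50), its target BZIP60 (0.51) and CRT3, the calreticulin of immune receptors (0.79), but the rises were 5 without WT replicate 1, 7 without gyf1 gyf2-2 replicate 1 or 3 and 7 without both libraries that stood apart. Heat shock genes were higher in 14 of 58 (24.1%) and lower in 6 (10.3%), against 15.1% and 12.6% of all tested genes. Their falls were 11 without WT replicate 1 and 9 without both libraries that stood apart. The inducible HSP18.2 (1.22) and the factors HSFA8 (1.28) and HSF A4A (1.04) rose, and the abundant constitutive chaperone HSC70-1 fell to 1623, 1524 and 1654 CPM in gyf1 gyf2-2, against 2102, 2319.9 and 2164 CPM in WT (log2 fold change −0.46, adjusted p = 8.84e-07). Of 17 hypoxia genes 4 rose and 1 fell (median −0.04), and the rises were AT3G10040 (HRA1, 34.7, 32.9 and 38.2 CPM in gyf1 gyf2-2, against 6.43, 6.71 and 6.16 CPM in WT), LBD41 (102, 98.2 and 103 CPM in gyf1 gyf2-2, against 20.9, 21.8 and 16.6 CPM in WT) and the cysteine oxidases AT5G15120 (PCO1, 0.95) and AT5G39890 (PCO2, 0.76), and ADH1, alcohol dehydrogenase, was lower (−0.46), a call lost without WT replicate 1 or gyf1 gyf2-2 replicate 3.

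Mitochondrial stress genes numbered 6 rises and 2 falls of 16, with BCS1, an outer membrane protein gene used as a stress marker (1.70), and the carrier DIC2 (1.46) higher. Clock genes showed 4 rises and 5 falls of 20: PRR5 (0.48), PRR7 (0.55), TOC1 (0.32) and GI (0.41), which peak later in the day, rose, and the dawn gene LHY fell (−0.28). The falls were 1 without both libraries that stood apart, 2 without WT replicate 1 or 3 (LHY was lost without WT replicate 3) and 3 without gyf1 gyf2-2 replicate 1, 2 or 3, and the time of harvest is not given in the labels. Light signalling had 7 rises, among them the photoreceptors CRY1 (0.38) and CRY2 (0.39), and 8 falls, among them HY5, the light response factor (18.6, 21.2 and 20.02 CPM in gyf1 gyf2-2, against 32.7, 29.1 and 26 CPM in WT), its relative HYH (−0.48) and ELIP1 (−0.61), of 34. The rises were 4 without gyf1 gyf2-2 replicate 1. Of 35 glutathione transferases 10 rose, GSTF8 (0.52) and GSTF6 (0.68) among them, and 6 fell, or 3 without gyf1 gyf2-2 replicate 3.

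Families tied to cell expansion held many falls. Of 49 SAUR genes, 17 fell, 10 of them by at least 2-fold, and 1 rose (median −0.34). AT4G38860 (SAUR16) had 6.51, 5.48 and 5.52 CPM in gyf1 gyf2-2, against 23.9, 20.6 and 21.5 CPM in WT (log2 fold change −1.92, adjusted p = 3.42e-12), and AT4G38840 (SAUR14) had 11.4, 11.5 and 12.3 CPM in gyf1 gyf2-2, against 28.7, 30.8 and 28.9 CPM in WT (log2 fold change −1.33, adjusted p = 3.67e-11). Expansins, which loosen walls, and xyloglucan enzymes, which remodel them, parted: 15 of 52 fell and 7 rose. The falls held 7 alpha-expansins, with EXPA10 (22, 23 and 21.1 CPM in gyf1 gyf2-2, against 63.8, 67.7 and 65.7 CPM in WT), EXPA5 (12.7, 12.2 and 12.3 CPM in gyf1 gyf2-2, against 33.6, 34.4 and 34.7 CPM in WT) and EXPA1 (109, 107 and 106 CPM in gyf1 gyf2-2, against 223, 215 and 211 CPM in WT) in front, and the rises held TCH4, XTH24 (1.77) and XTR6 (1.42). The 3 expansins lay below WT in all libraries. Of 14 response regulators of cytokinin signalling, 6 fell and 2 rose. The falls included the cytokinin-induced type A members RR16 (−1.28), ARR6 (−0.93), ARR7 (−0.81) and ARR4 (−0.45), and the rises included the type B activator RR1 (0.35). Auxin genes had 6 higher and 6 lower of 54 (11.1% each), below the 15.1% and 12.6% of all tested genes. The conjugating enzymes WES1 (0.98) and DFL1 (0.82) rose and DFL2 (−0.39) fell. The falls among auxin genes were 2 without gyf1 gyf2-2 replicate 3, 3 without WT replicate 1 and 3 without both libraries that stood apart.

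Of 25 histone genes, 15 fell and 0 rose (median −0.34), where 12.6% of all tested genes fell. AT3G53650, an H2B gene, had 4.91, 8.05 and 7.74 CPM in gyf1 gyf2-2, against 16.9, 12.3 and 14.3 CPM in WT (log2 fold change −1.07, adjusted p = 3.46e-06), and HTB1, another H2B gene, had 38.4, 42.2 and 31 CPM in gyf1 gyf2-2, against 56, 57.5 and 51.9 CPM in WT (log2 fold change −0.57, adjusted p = 1.65e-05). Of 67 cell cycle genes 9 fell (13.4%, near the share of all tested genes) and 1 rose. PCNA1, the replication clamp (22.2, 22 and 19.9 CPM in gyf1 gyf2-2, against 29.1, 32.4 and 25.4 CPM in WT), CDT1A, of replication licensing (−0.50), and CYCD3;2 (−0.25) were among these falls. The falls were 3 without gyf1 gyf2-2 replicate 3, 4 without WT replicate 1 and 5 without both libraries that stood apart. Of 17 genes of the stomatal lineage, 10 fell and 0 rose (median −0.48). They included SPCH, which starts the lineage (8.43, 10.08 and 10.5 CPM in gyf1 gyf2-2, against 16.1, 14.3 and 15.1 CPM in WT), the receptor TMM (15.4, 15.9 and 16.6 CPM in gyf1 gyf2-2, against 22.9, 25.5 and 24.7 CPM in WT) and the peptides EPF2 (−1.28) and STOMAGEN (−0.65). Without WT replicate 2 the falls were 6. Aquaporins held 9 rises (32.1%) and 3 falls (10.7%) of 28, and secretory peroxidases 16 rises (24.6%) and 11 falls (16.9%) of 65. Over all tested genes these shares were 15.1% and 12.6%. The rises among aquaporins were 5 without gyf1 gyf2-2 replicate 1. AT5G64120 (PRX71) was the most abundant peroxidase to rise (935, 847 and 793 CPM in gyf1 gyf2-2, against 363, 361 and 419 CPM in WT).

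Marker genes of tissues other than guard cells were called in a smaller share. The 5 mesophyll markers had 1 rise, RBCS1A, and 1 fall, CA1 (−0.39), and summed to 28506, 26608 and 30439 CPM in gyf1 gyf2-2, against 27870.0, 26960.0 and 28042 CPM in WT. RBCS1A alone supplied 17729, 18086 and 19396 CPM of the gyf1 gyf2-2 sums and 15425, 16322 and 15792 CPM of the WT sums. These sums thus follow mainly 1 gene, and 3 of the 5 markers had a negative log2 fold change. The 8 endodermis and root niche markers had 0 calls by edgeR in either direction and summed to 85.7, 84.3 and 87.2 CPM in gyf1 gyf2-2, against 80.7, 90.2 and 90.0 CPM in WT. The 6 root hair markers also had 0 calls by edgeR, and summed to 71.4, 50.9 and 51.4 CPM in gyf1 gyf2-2, against 48, 67.5 and 70.5 CPM in WT. The sums of both root sets overlapped between genotypes. Yet 5 of the 6 root hair markers had a negative log2 fold change, with a median of −0.29, against −0.32 for the guard cell markers. Leaving out gyf1 gyf2-2 replicate 1 gave 2 root hair markers called lower. Guard cell markers fell in 3 of 5 and summed to 98.5, 102 and 101 CPM in gyf1 gyf2-2, against 121.5, 113 and 124 CPM in WT, without overlap. Of these falls, FMA is also in the stomatal list. Its call was lost without WT replicate 2 or 3 or gyf1 gyf2-2 replicate 1 or 3. The call of AT1G22690 was lost without both libraries that stood apart. Vascular markers had 2 rises and 1 fall of 8, each lost on leaving out single libraries or both that stood apart. Of the lists with 0 members called in a direction, at most 1 member had an unadjusted p below 0.05 in that direction, and DESeq2 and limma called 0, except for 1 root hair marker called lower by DESeq2. None of the 11 seed maturation markers passed the filter. Whether the share of guard cells bears on the stomatal list was not tested.

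On the FPKM scale, which corrects for gene length, the largest rise in mean was that of RBCS1A, with 14448 ± 702 FPKM in gyf1 gyf2-2 and 12428 ± 352 FPKM in WT (mean ± SD, n = 3 each). It was followed by MT2B, a metallothionein, with 4972 ± 103 FPKM in gyf1 gyf2-2 and 3411 ± 563 FPKM in WT, and GRP3S, a glycine-rich wall protein, with 1963 ± 84.1 FPKM in gyf1 gyf2-2 and 1033 ± 28.1 FPKM in WT. The extensin EXT4 had 1557 ± 183 FPKM in gyf1 gyf2-2 and 634 ± 93.4 FPKM in WT, and ECS1, a wall protein linked to resistance, 1062 ± 102 FPKM in gyf1 gyf2-2 and 558 ± 34.3 FPKM in WT. The lipid transfer-like defence genes EARLI1 and AT4G12490 and PYK10, a myrosinase of ER bodies, also belonged to the 10 largest rises. Of the 10 largest falls among called genes whose libraries did not overlap, 9 belong to photosynthesis: RBCS2B, PSBQA, LHCB6, LHCB4.1, FBA2, PSBP-1, DRT112 (plastocyanin), GAPA-2 and RBCS1B. The other was HSC70-1, and their log2 fold changes lay between −0.71 and −0.19. Some larger differences in mean FPKM were not called, among them CAB2, with 2706 ± 489 FPKM in gyf1 gyf2-2 and 3465 ± 363 FPKM in WT (adjusted p = 0.0841), and RBCS3B, with 4429 ± 261 FPKM in gyf1 gyf2-2 and 4872 ± 130.3 FPKM in WT (adjusted p = 0.0797). The largest called fall was RBCS2B, with 2020.3 ± 135 FPKM in gyf1 gyf2-2 and 2809.8 ± 198 FPKM in WT. Of these falls, those of LHCB6, LHCB4.1, PSBP-1 and DRT112 lost their calls in some of the settings tried. A ranking by difference in FPKM favours abundant transcripts, and the largest rise, RBCS1A, is a photosynthesis gene too. The number of photosynthesis genes among the falls is therefore partly set by the ranking.

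The double mutant was also set against the single mutants. It differed from gyf1 in 4730 genes (22.8%), 2715 higher (13.1%) and 2015 lower (9.72%), and from gyf2 in 3956 genes (19.1%), 2369 higher (11.4%) and 1587 lower (7.66%). These comparisons share the gyf1 gyf2-2 libraries, so their values are set side by side only. Of the 18 sugar starvation markers 15 were higher than in gyf1 and 15 higher than in gyf2, with medians of 0.93 and 0.44. Their summed level averaged 1697 ± 73.9 CPM in gyf1 gyf2-2, 1116 ± 59.4 in gyf2, 847 ± 42.7 in gyf1 and 739 ± 22.1 in WT (SD, n = 3 each). AT4G35770 averaged 55.1 ± 0.563 in gyf1 gyf2-2, 52.9 ± 4.54 in gyf1 gyf2-1, 13.3 ± 1.17 in gyf2, 8.01 ± 1.49 in gyf1 and 6.72 ± 0.528 in WT. TPS11 averaged 58.7 ± 2.95 in gyf1 gyf2-2, 57 ± 3.73 in gyf1 gyf2-1, 34.4 ± 4.17 in gyf2, 23.1 ± 2.71 in gyf1 and 16.1 ± 0.742 in WT. In both genes the order was the double mutants, gyf2, gyf1 and WT, and the difference between gyf1 gyf2-2 and gyf1 gyf2-1 was not called (log2 fold change 0.06, adjusted p = 0.935 for AT4G35770 and log2 fold change 0.04, adjusted p = 0.953 for TPS11).

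The 31 salicylic acid genes summed to 1559 ± 172 CPM in gyf1 gyf2-2, 877 ± 70.2 in gyf2, 818 ± 42.5 in gyf1 and 869.9 ± 69.5 in WT, and 26 were higher in gyf1 gyf2-2 than in gyf1 and 23 higher than in gyf2. The sums of both single mutants overlapped those of WT, and PR1, which varied between libraries, is part of all these sums. WRKY33 averaged 119.6 ± 9.78 in gyf1 gyf2-2, 104 ± 9.34 in gyf1 gyf2-1, 94.3 ± 10.7 in gyf2, 51.3 ± 2.38 in gyf1 and 34.4 ± 2.05 in WT CPM. For phosphate genes the sums were 1752 ± 88.8 CPM in gyf1 gyf2-2, 1287 ± 10.12 in gyf2, 1349 ± 14.2 in gyf1 and 1266 ± 53.3 in WT, with 23 of 33 higher in gyf1 gyf2-2 than in gyf1 and 20 higher than in gyf2. Ribosomal protein genes summed to 41300.0 ± 2468 CPM in gyf1 gyf2-2, 45530.0 ± 3441 in gyf2, 46700.0 ± 1886 in gyf1 and 50360.0 ± 4876 in WT, and 41 of 184 were lower in gyf1 gyf2-2 than in gyf1 and 28 lower than in gyf2. Small nucleolar RNA genes summed to 47 ± 3.97 CPM in gyf1 gyf2-2, 67.9 ± 5.06 in gyf2, 73.7 ± 1.6 in gyf1 and 89 ± 16.7 in WT.

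**Figure D4:**
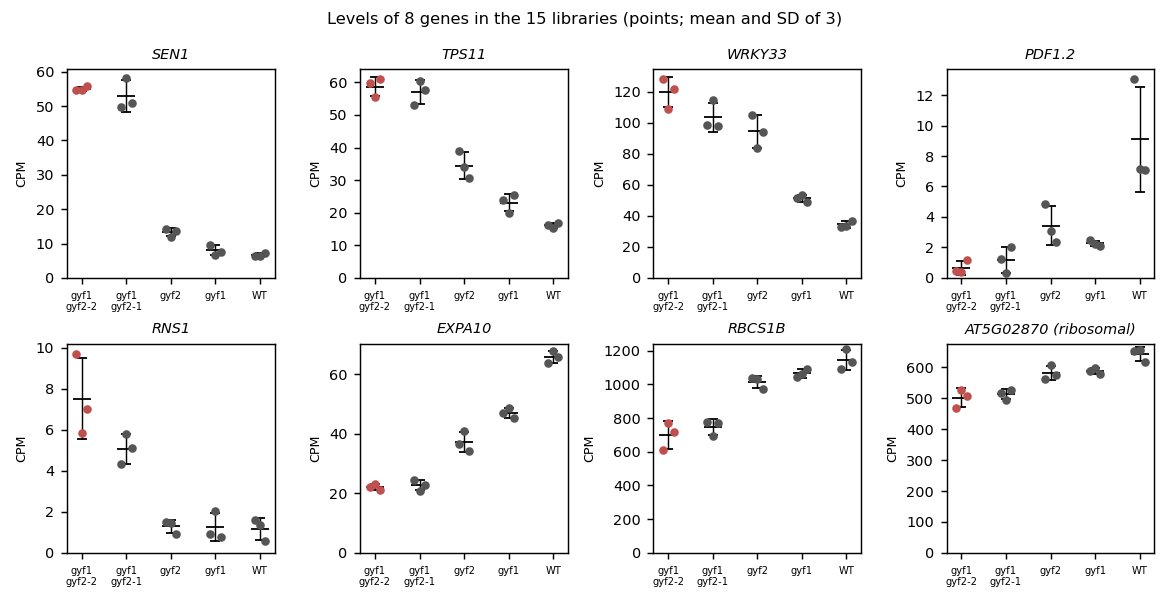
The CPM of 8 genes is plotted on axes that start at 0, with points for single libraries and horizontal marks for the mean and SD of each genotype (n = 3), ordered gyf1 gyf2-2, gyf1 gyf2-1, gyf2, gyf1 and WT. SEN1 (AT4G35770) and TPS11 stand highest in the 2 double mutants, and the ribosomal gene AT5G02870 stands lowest there.

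The 2 double mutants were close. Against gyf1 gyf2-1, 48 genes differed (0.232%), 33 higher in gyf1 gyf2-2 (0.159%) and 15 lower (0.0724%), and leaving out single libraries of either line gave 21 to 58. Of the sugar starvation and salicylic acid lists 0 genes were called by edgeR in either direction, and of the phosphate list 4 were higher in gyf1 gyf2-2: SPX1, AT1G73010 (a phosphatase, PS2), PEPC1 and SRG3 (log2 fold change 0.53, adjusted p = 5.59e-04 for SPX1, log2 fold change 0.81, adjusted p = 0.0133 for AT1G73010, log2 fold change 0.89, adjusted p = 0.0138 for PEPC1 and log2 fold change 0.36, adjusted p = 0.0362 for SRG3). WRKY53 was also higher (log2 fold change 0.69, adjusted p = 0.00107). AT4G33720 averaged 16.6 ± 3.18 in gyf1 gyf2-2, 45.1 ± 0.473 in gyf1 gyf2-1, 68.9 ± 6.7 in gyf2, 71.9 ± 3.49 in gyf1 and 85.7 ± 15.3 in WT CPM (log2 fold change −1.45, adjusted p = 5.22e-06), so it was lower still in gyf1 gyf2-2. AT1G75945, with no described function, averaged 0.173 ± 0.136 in gyf1 gyf2-2, 4.38 ± 0.709 in gyf1 gyf2-1, 0.0924 ± 0.0988 in gyf2, 5.23 ± 0.479 in gyf1 and 5.5 ± 0.916 in WT CPM and was near 0 in gyf1 gyf2-2 and gyf2 (log2 fold change −4.63, adjusted p = 3.44e-09).

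The 5 lowest adjusted p-values among genes higher than in gyf1 gyf2-1 came from one place, as did 8 of the 48 calls. A run of 8 adjacent genes on chromosome 2, from 19517187 to 19541585 (24399 bases, TAIR10), had 1.66 to 2.11 times the mean CPM of gyf1 gyf2-1 in gyf1 gyf2-2, 1.7 to 2.1 times that of gyf2 and 1.61 to 2.01 times that of WT, but 0.899 to 1.13 times that of gyf1. In gyf1 itself the same genes had 1.74 to 2.14 times the level of WT. The 10 flanking genes had ratios of 0.727 to 1.36 to gyf1 gyf2-1. AT2G47610, one of the 2 ribosomal protein genes that rose against WT, lies inside, as do U1A, a spliceosomal protein, the exchanger MHX, the photolyase-like PHR2 and UXS4, a UDP-xylose synthase. Genes of the run thus had higher levels than in WT in gyf1 gyf2-2 and in gyf1 alike, and the DNA copy number of the stretch was not measured here. Outside the run, AT1G09640, an elongation factor 1-gamma gene on chromosome 1, averaged 252 ± 6.55 in gyf1 gyf2-2, 158 ± 9.08 in gyf1 gyf2-1, 276 ± 6.4 in gyf2, 252 ± 9.78 in gyf1 and 131 ± 7.15 in WT CPM, so gyf1 gyf2-2 lay near both single mutants and above gyf1 gyf2-1 (log2 fold change 0.68, adjusted p = 4.77e-08).

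**Figure D5:**
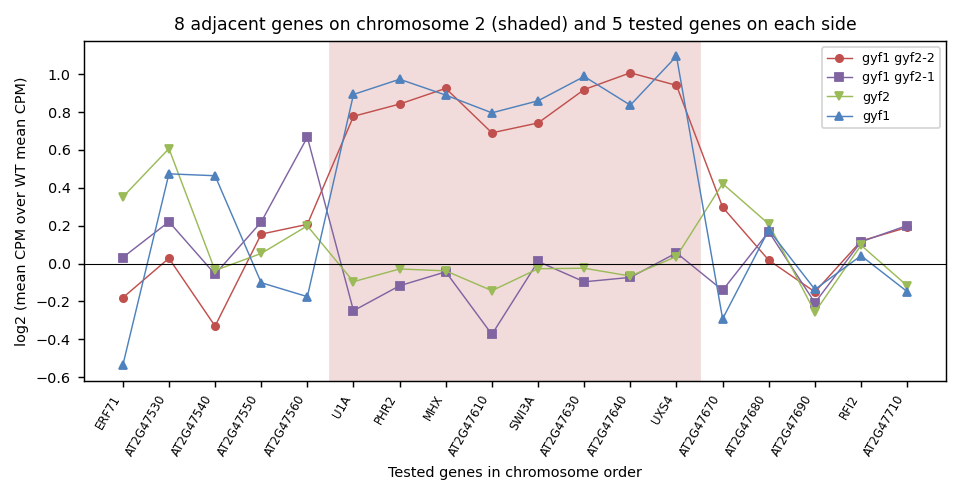
The log2 ratio of the mean CPM of each mutant genotype over the mean CPM of WT is plotted for the 8 genes of the chromosome 2 run (shaded) and 5 tested genes on each side, in chromosome order on the x axis. Inside the run gyf1 gyf2-2 and gyf1 lie well above 0, at 1.61 to 2.01 and 1.74 to 2.14 times the level of WT, while gyf1 gyf2-1 and gyf2 stay near 0 or below it.

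Neighbouring genes sometimes rose or fell together by at least 2-fold in gyf1 gyf2-2 against WT, in 10 runs of at least 3 adjacent tested genes. TPS11 closed a run of 5 with PNP-A, AT2G18670, AT2G18680 and AT2G18690 on chromosome 2 (8089411 to 8112010), with log2 fold changes of 1.2 to 2.14. CRK36, CRK37, CRK38 and CRK39 formed a run of 4 on chromosome 4 (2231717 to 2262320), with 1.28 to 1.98, and GRP19, GRP20 and AT5G07570, glycine-rich genes, a run of 3 on chromosome 5 (2388225 to 2396329), with 1.5 to 2.39. AT4G38840, SAUR15 and AT4G38860 fell together on chromosome 4 (18124978 to 18131284), with −1.92 to −1.21. The CRK, SAUR and glycine-rich runs hold close copies of one gene, between which reads can be split.

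Genes that changed by at least 2-fold had few exons. Of the 2737 tested protein-coding genes with 1 exon, 5.7% were at least 2-fold higher and 2.1% at least 2-fold lower in gyf1 gyf2-2. Of 10566 genes with 5 or more exons these shares were 1.3% and 0.303%, and of 6916 genes with 2 to 4 exons 3.85% and 1.1%. The median number of exons was 3 among genes at least 2-fold higher, 2 among those at least 2-fold lower and 5 among all. Without the fold limit the shares differed less: 16.8% of genes with 1 exon were called higher and 13.8% lower. Of genes with 5 or more exons these shares were 14.2% and 11.7%. Genes at least 2-fold lower or higher also had low levels, where counting error is larger. Their median mean log2 CPM was 0.96 and 2.76, against 4.05 over all tested protein-coding genes. The lncRNA AT1G06957 had 0 counts in all 3 gyf1 gyf2-2 libraries, against 16, 11 and 21 counts in WT.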

How the data were processed

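Whole-seedling RNA of 3 gyf1 gyf2-2 and 3 WT samples was compared, with the libraries of gyf1 gyf2-1, gyf2 and gyf1 in the same fit. The authors deposited raw read counts per gene and, in a second table, FPKM values per gene. Per the submitters' processing notes the tools were HISAT2 2.0.4 and HTSeq 0.6.1p1 and the genome was TAIR10. Filters and the strand setting of counting are not given in the sources used here, so reads of overlapping antisense genes may be mixed. FPKM values were used only to describe levels.

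Counts were analysed in R 4.3.3 with edgeR 4.0.16. Genes were filtered with filterByExpr (20721 of 32833 kept), TMM factors were applied, and the 15 libraries entered a single robust quasi-likelihood fit with 1 mean for each genotype. The common biological coefficient of variation was 7.94%. Each of 4 comparisons, gyf1 gyf2-2 against WT, gyf1 gyf2-1, gyf1 and gyf2, was adjusted by Benjamini-Hochberg over all tested genes, with calls made under an adjusted p of 0.05. Standard errors of log2 fold changes were taken as their size over the square root of the F statistic. The script was tested on simulated data. Intervals are not given for counts, since the spread between libraries is in the model.

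The members and the 56 gene lists (2148 loci, 1832 tested) were chosen with earlier results of these data known. The lists overlap in part, with 65 loci in more than 1 list. Named genes follow a rule. Of called genes that reach a mean log2 CPM of 1 and whose libraries do not overlap, it takes the 20 largest rises and 20 largest falls, and, among called genes without overlap, the 10 largest rises and 10 largest falls in mean FPKM. It adds the 3 called members of each list that rank first by adjusted p, the 5 genes with the lowest adjusted p in each direction against gyf1 gyf2-1, and genes described with a GYF domain. Other genes were chosen after their values were seen. Windows of 300 bases before the gene start were read from RefSeq TAIR10.1 for nuclear genes, of which 20642 of 20643 tested had the same start in both annotations.

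Alternatives were RLE factors, unscaled totals, no filter, a higher filter, DESeq2 1.42.0, limma 3.58.1 with voom, only the groups compared, leaving out libraries, and a replicate block. Replicate numbers were shared by the labels of both genotypes. Deviations of same-numbered libraries correlated at −0.07, −0.04 and 0.04, so the numbers were not taken to pair samples. Duplicates are mentioned in the design text, yet each genotype has 3 libraries, all used here. Shoot meristem markers (0 of 2 called) were too few to describe.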

Additional observations from a re-analysis of the deposited data

Results flagged for a closer look

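The 10 results listed here are genes whose change against WT differed between the double mutants by the direct comparison of gyf1 gyf2-2 with gyf1 gyf2-1 (edgeR quasi-likelihood, adjusted over all tested genes). They are the 5 with the lowest adjusted p in each direction. Higher in gyf1 gyf2-2 were AT2G47610 (log2 fold change 1.06), U1A (1.03), MHX (0.97), PHR2 (0.96) and UXS4 (0.88), and each lay above gyf1 gyf2-1 in all libraries. All of them belong to the chromosome 2 run whose level in gyf1 gyf2-2 is close to that in gyf1. Lower in gyf1 gyf2-2 were AT1G75945 (−4.63), the CAP family gene AT4G33720 (−1.45), AT5G62360, a pectin methylesterase inhibitor (−0.73), AT4G16260, a glycosyl hydrolase (−0.41), and GRP3S (−0.35). AT1G75945 was near 0 in gyf2 too. GRP3S was higher than WT in gyf1 gyf2-2 (log2 fold change 0.93, adjusted p = 1.26e-12), and less so than in gyf1 gyf2-1. What sets these genes apart between the lines was not tested.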

How the results depend on the processing

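Counts of called genes kept their size under most settings tried. Rises and falls against WT were 3126 and 2600 with DESeq2, 3128 and 2596 with limma, and 3374 and 2889 with the replicate block, which gave 571 rises and 210 falls of at least 2-fold and reversed none of the 208 named genes called against WT. The numbers were not taken to pair the samples, on correlations between gyf1 gyf2-2 and WT only. Calls were more numerous with the block than in the main fit in each comparison. Whether same-numbered libraries share a batch was not tested. The block gave 69, 5172 and 4457 genes against gyf1 gyf2-1, gyf1 and gyf2. Without both libraries that stood apart, 2760 rose and 2056 fell. Leaving out single libraries gave 2444 to 3032 rises, 1903 to 2473 falls, 503 to 586 rises and 182 to 224 falls of at least 2-fold, and 21 to 58 genes against gyf1 gyf2-1, with 21 without gyf1 gyf2-1 replicate 3, 27 without gyf1 gyf2-2 replicate 2, 29 without gyf1 gyf2-1 replicate 2 and 30 without gyf1 gyf2-2 replicate 3. The falls of at least 2-fold numbered 85, where 200 were found, once genes below a mean log2 CPM of 1 were removed, since fewer genes are then tested. Rises made up 52.1 to 57.3% of calls. Of these 208 genes, 191 kept the call under every setting that tested them and 194 without every single library. The higher filter tested 206 of them. Most were chosen by low adjusted p or lack of overlap in these same libraries. These counts therefore do not measure how stable calls are over all genes. Of the 6 uncalled GYF domain genes, AT1G24300 was called lower without WT replicate 1 (log2 fold change −0.36, adjusted p = 0.00222 by edgeR) and without both libraries that stood apart (−0.30, adjusted p = 0.0155), and 2 changed sign. AT1G27430 (log2 fold change −0.02) had 0.037 without both libraries that stood apart and −0.12 to 0.13 without single libraries (above 0 without WT replicate 2 or 3 or gyf1 gyf2-2 replicate 2), and SDG2 (0.07) had −0.063 to 0.19 without single libraries (below 0 without WT replicate 1 or gyf1 gyf2-2 replicate 1). The cause was not tested. Of 1680 list counts recomputed, 141 moved by over 1.5 times, many of them counts of a few genes. With 3 libraries a genotype and no statement of separate cultures, the spread between samples may be technical.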
